A study of Sus scrofa domesticus with 6 samples.

Results

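The 9 genes of the pig CC chemokine system described here were followed through single-cell RNA libraries of transplanted and control lung: the ligands CCL2, CCL3L1, CCL4, CCL5, CCL8, CCL20 and CCL22, and the receptors CCR1 and CCR2. They were found by exact name among the genes counted in each library. Of the 9 genes, 8 were listed in all 6 libraries, among 23556 genes listed in all 6 and 33025 listed in at least 1. CCL20 had no entry under that name and is not analysed here. The questions were which lung cells held the RNA of each ligand, which held the RNA of the 2 receptors, and how both differed between reperfused graft and control lung.

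The study transplanted pig lung after 24 hours of cold storage and reperfused it for 8 hours (ischemia-reperfusion injury, IRI). The IRI CD45+ group is 2 libraries of graft cells sorted for CD45, the common surface marker of blood-derived cells, and is called the CD45+ graft here. The IRI CD45- group is 1 library of graft cells without that marker, called the CD45- graft. The control group is 3 libraries of whole, unsorted suspensions from the right lungs of donors, collected after retrograde perfusion. Controls were neither sorted nor transplanted, so what the sort did and what reperfusion did cannot be told apart anywhere below. The labels speak of 3 pairs of specimens but do not say which libraries came from the same animal. P-values therefore measure the spread between these libraries.

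CC chemokines are small secreted proteins that draw leukocytes out of the blood and through tissue. Their receptors span the membrane repeatedly and signal through inhibitory G proteins, so a ligand acts on the cells that carry its receptor. CCL2 and CCL8 attract monocytes, CCL2 through CCR2. CCL3-type ligands and CCL5 bind CCR1, and CCL4 attracts several kinds of leukocyte. CCL22 is made by dendritic cells and macrophages and attracts cells with CCR4. These roles are known mainly from human and mouse.

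In RefSeq's annotation of Sscrofa11.1, 5 of the ligand genes lie on chromosome 12. CCL4 lies at 39479190 to 39480511, CCL3L1 at 39491999 to 39493345, CCL5 at 39652731 to 39659121, CCL8 at 40740468 to 40741970 and CCL2 at 40798109 to 40800013. CCL22 lies on chromosome 6 at 19296726 to 19301506. The receptors lie on chromosome 13, CCR1 at 29227218 to 29233862 and CCR2 at 29368735 to 29374564. The span of CCR1 shares 6585 bases with that of XCR1, a dendritic cell receptor, so reads from the shared stretch may have been counted for either gene.

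Total counts were 19435860 and 19098567 UMIs (unique molecular identifiers, 1 per captured transcript) for the CD45+ graft, 40647380 for the CD45- graft and 25802239 to 33549585 for the controls. Filtering left 4234 and 3795 cells of the CD45+ graft, 14098 of the CD45- graft and 4396 to 5927 per control. The smallest deposited cell had 74 to 117 UMIs in graft libraries and 1001 in each control. Cells were grouped by markers that include no CC ligand or receptor, and each class carries the ending "-like". A level is given in CPM, the gene's UMIs divided by all UMIs of the class in that library and multiplied by 1000000, for classes of at least 20 cells. Genes not listed in all 6 libraries, the mitochondrial genes of controls among them, took 0.108 and 0.139% of the UMIs of the CD45+ graft and 1.2% of the CD45- graft, against 14.2, 11.3 and 10.8% of controls. They lower the CPM of every other gene in controls, while the tests leave them out. Neutrophil-like cells numbered 886 and 846 in the CD45+ graft and 312 in the CD45- graft, against 6 to 13 in controls, and macrophage-like cells 32 and 30 in the CD45+ graft against 304, 371 and 395 in controls. Alveolar type 2 (AT2)-like cells, the surfactant-making epithelium, numbered 7851 in the CD45- graft against 3 to 9 in controls. Graft and control thus share only some classes, and intervals and floors cover counting error only.

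**Figure D1:**
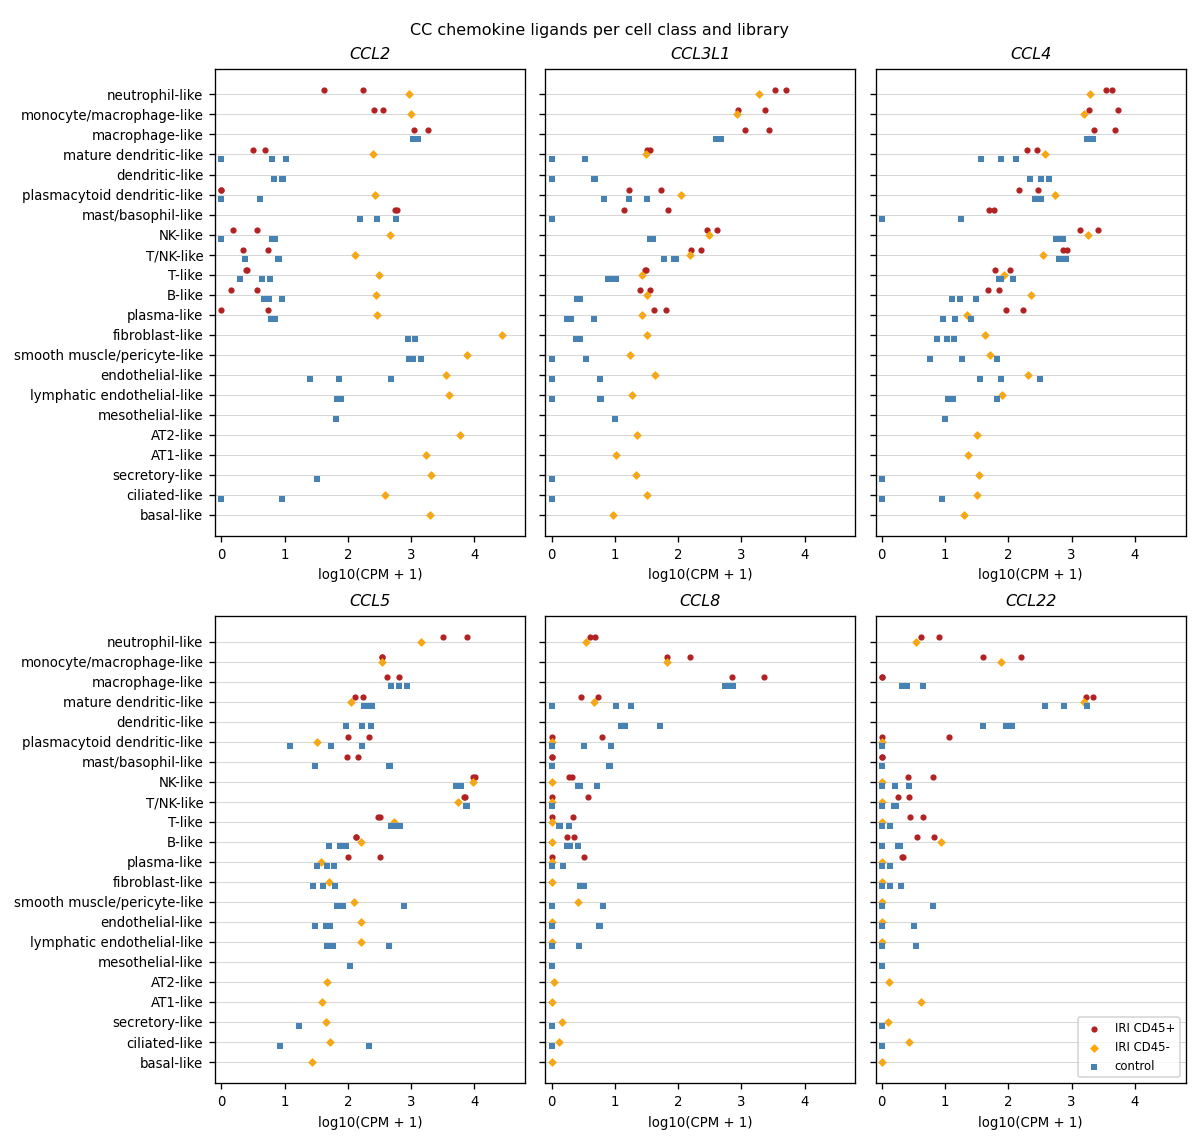
Level of the 6 measured CC ligands in each cell class, 1 point per library with at least 20 cells of the class; the x axis is the log10 of CPM plus 1. CCL2 was highest in fibroblast-like cells of the CD45- graft, at 27542 CPM, CCL8 in macrophage-like cells, and CCL22 in mature dendritic-like cells.

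CCL2, the main monocyte attractant, was carried in the CD45- graft by structural cells and by alveolar epithelium. Fibroblast-like cells held 27542 CPM in the CD45- graft, against 1142, 1147 and 899 in controls. The graft value stood far above all 3 controls, and 95.0% of graft fibroblast-like cells had a CCL2 UMI, against 64.5, 67.7 and 55.4% of control ones. Smooth muscle/pericyte-like cells, which wrap vessels and airways, held 7776 in the CD45- graft, against 1059.5, 1415 and 922 in controls. Lymphatic endothelial-like cells held 4024 in the CD45- graft, against 65.8, 75.4 and 76.6 in controls. Endothelial-like cells of blood vessels held 3518 in the CD45- graft, against 24.5, 472 and 72.5 in controls. In each of the 4 classes the graft library lay above every control.

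**Figure D2:**
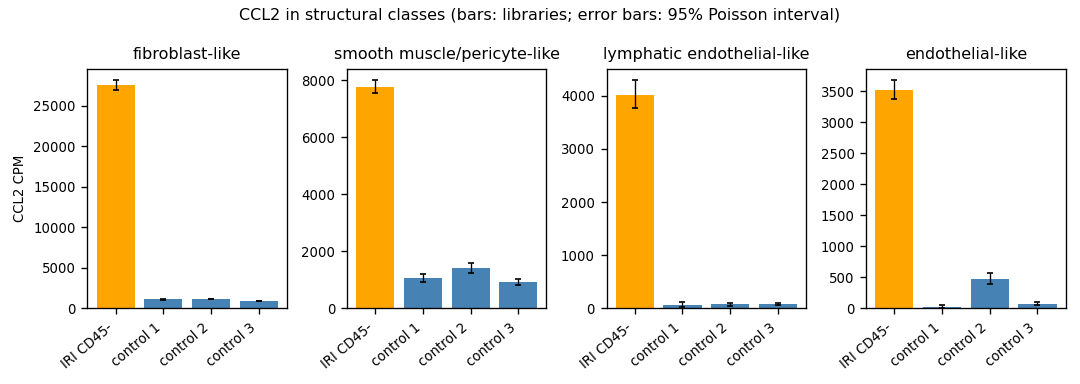
CCL2 CPM in 4 structural classes, 1 bar per library, with the CD45- graft left of the 3 controls and error bars giving 95% Poisson intervals of the counts. Each panel has its own axis from 0; the graft library exceeded every control in all 4 classes.

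Groups were compared with edgeR's quasi-likelihood test on UMIs summed per library and class, adjusted by Benjamini-Hochberg over all genes tested, and a gene with an adjusted p under 0.05 is called. CCL2 rose by 4.86 ± 0.23 on the log2 scale (SE) in fibroblast-like cells (edgeR adjusted p = 2.16e-09), by 5.79 ± 0.20 in lymphatic endothelial-like cells and by 3.01 ± 0.28 in smooth muscle/pericyte-like cells. In endothelial-like cells the change of 4.37 ± 1.75 was not called (edgeR adjusted p = 0.232). It was called when any 1 control was left out, at 3.85 without replicate 1, 6.19 without replicate 2 and 3.91 without replicate 3. These comparisons set 1 graft library against 3 controls, and the lone library is assumed to vary like the controls. Of all genes tested, 27.7% were called in fibroblast-like, 28.9% in lymphatic endothelial-like, 34.4% in smooth muscle/pericyte-like and 25.0% in endothelial-like cells. The CC genes called there were 3 of 5 tested, 1 of 3, 1 of 3 and 2 of 4. The median gene changed by -0.71 in fibroblast-like and by -0.17 in lymphatic endothelial-like cells.

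Graft and control cells of each structural class lay mostly in different clusters. Of the 139 fibroblast-like cells of the CD45- graft, 138 lay in cluster 10.3, where PTX3, IL6 and ADAMTS4 ranked highest. Cluster 10.2, with 141 cells of the CD45- graft, scored best for fibroblast. It stayed unnamed, as its top 10 genes held more smooth muscle/pericyte markers, so its cells enter no fibroblast-like value. Fibroblast markers summed to 31536 CPM in fibroblast-like cells of the CD45- graft, against 63737, 73281 and 84793 in controls, with 0 of 12 markers at 0. Whether these cells are the same kind of fibroblast was not tested.

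AT2-like cells held most of the CCL2 RNA of the CD45- graft. Their level was 6021 CPM, 86.1% of them had a CCL2 UMI, and they held 78.5% of the CCL2 UMIs of that library. Controls had too few AT2-like cells for a value, so no comparison was made. Other epithelial classes of the CD45- graft held less: secretory-like airway cells 2089 CPM, basal-like airway progenitors 1964, AT1-like cells of the gas-exchange surface 1701 and ciliated-like cells 385.

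CCL2 UMIs of the CD45- graft were also found in cells that should lack the gene. Of B-like cells, 37.3% had a CCL2 UMI in the CD45- graft (median 2036 UMIs per cell), against 0.260 and 1.77% in the CD45+ graft (medians 4322 and 4983) and 2.40, 1.44 and 1.99% in controls (medians 3249, 3523 and 2964). AT2 RNA showed the same spread: 9 AT2 markers summed to 7376 CPM in B-like cells of the CD45- graft and to 133180 in its AT2-like cells. The CCL2 level of AT2-like cells was therefore scaled to the AT2 marker level of each class in that library. This gave 334 CPM for B-like cells (measured 274), 478 for NK-like cells (measured 469) and 306 for T-like cells (measured 312). For AT1-like cells it gave 1667 (measured 1701) and for ciliated-like cells 432 (measured 385). In B-, NK-, T- and ciliated-like cells CCL2 is read as background. AT1-like cells held more AT2 marker RNA, at 36880 CPM against 7376 in B-like cells. For AT1-like cells the scaling therefore cannot decide whether CCL2 is background. The measured level was 52.5 times the scaled one in fibroblast-like, 9.90 times in smooth muscle/pericyte-like, 8.10 times in lymphatic endothelial-like and 2.17 times in endothelial-like cells. Endothelial-like cells held 35920 CPM of AT2 markers, near the AT1-like level, and their scaled CCL2 was 1624 (measured 3518). What part of the endothelial-like level is background was not tested. The measured level was 4.38 times the scaled one in basal-like and 2.56 times in secretory-like cells.

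Among immune cells, macrophage-like cells carried CCL2 in both tissues. Their level was 1845 and 1121 CPM in the CD45+ graft, against 1054, 1276 and 1159 in controls. The ranges overlapped, and the change of 0.34 ± 0.20 was not called (edgeR adjusted p = 0.214). These cells held 60.1 and 11.9% of the CCL2 UMIs of the CD45+ graft libraries, against 63.5, 43.7 and 42.8% in controls. In IRI CD45+ replicate 2 and control replicates 2 and 3 most CCL2 UMIs thus lay in other cells. That graft library had 252 monocyte/macrophage-like cells, against 30 macrophage-like ones. Mast/basophil-like cells, the granule-bearing cells of allergy, held 553 and 597 CPM in the CD45+ graft, against 152, 288 and 568 in controls, and the change of 0.39 ± 0.39 was not called. Monocyte/macrophage-like cells, found almost only in the graft, held 258 and 356 in the CD45+ graft and 1012 in the CD45- graft, where the level scaled to AT2 markers was 453. Neutrophil-like cells of the CD45- graft held 924, 1.46 times their scaled level. In B-like cells, where CCL2 is read as background, it was called at -1.89 ± 0.75 (edgeR adjusted p = 0.0454), in 2 of 9 alternatives, with 0.421 and 2.69 CPM in the CD45+ graft and 8.19, 3.71 and 4.70 in controls.

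CCL8, a monocyte attractant encoded near CCL2, was concentrated in macrophage-like cells. The level there was 2297 and 705 CPM in the CD45+ graft, against 673, 558 and 739 in controls. Replicate 1 of the graft stood above all controls and replicate 2 inside their range, and the change of 1.18 ± 0.49 was not called (edgeR adjusted p = 0.145). It was 1.75 and called without IRI CD45+ replicate 2, and 0.08 without replicate 1. Macrophage-like cells held 87.5 and 48.8% of the CCL8 UMIs of the CD45+ graft libraries, against 98.0, 92.4 and 96.6% in controls. Monocyte/macrophage-like cells held 153 and 65.0 CPM in the CD45+ graft and 66.2 in the CD45- graft. B-like cells, the background class for CCL8, held 1.26 and 0.767 in the CD45+ graft and 1.64, 0.928 and 0.783 in controls. Most macrophage-like cells with a CCL8 UMI also had a CCL2 UMI. The share was 100 and 92.9% in the CD45+ graft, against 75.7, 84.6 and 80.2% in controls. CCL2 was itself abundant in this class, and whether these shares exceed those of all macrophage-like cells was not tested.

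CCL3L1 and CCL4, ligands of activated phagocytes and cytotoxic lymphocytes, were high in neutrophil-, monocyte/macrophage- and macrophage-like cells. Neutrophil-like cells held 5112 and 3349 CPM of CCL3L1 in the CD45+ graft and 1915 in the CD45- graft. They held 61.0 and 39.6% of the CCL3L1 UMIs of the CD45+ graft libraries, and 60.5 and 43.1% of them had a CCL3L1 UMI at medians of 1034 and 966 UMIs per cell. Their CCL4 level was 4406 and 3506 in the CD45+ graft and 1950.2 in the CD45- graft. Controls had too few neutrophil-like cells for a value. Monocyte/macrophage-like cells held 2395 and 891 CPM of CCL3L1 in the CD45+ graft and 846 in the CD45- graft, with a CCL4 level of 5432 and 1889.9 in the CD45+ and 1562 in the CD45- graft. All 42 such cells of IRI CD45+ replicate 1 had UMIs of both genes.

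CCL3L1 rose in macrophage-like cells of the graft. Its level was 2773 and 1138 CPM in the CD45+ graft, against 473, 390.4 and 407 in controls. Both graft libraries lay above every control, and the log2 change was 2.19 ± 0.33 (edgeR adjusted p = 0.00328), called in 13 of 13 alternatives at 1.41 to 2.66, the lowest without IRI CD45+ replicate 1. Of all genes tested in macrophage-like cells 26.4% were called, with a median change of -0.30; of the 7 CC genes tested there, CCL3L1 and CCR1 were called. With each cell thinned to 500 UMIs, 40.6 and 36.7% of macrophage-like cells had a CCL3L1 UMI in the CD45+ graft, against 14.5, 13.7 and 15.9% in controls. CCL4 in these cells was 4879 and 2280.3 CPM in the CD45+ graft, against 2209.6, 1753 and 1862 in controls. Scaled over the genes listed in all libraries the groups overlapped. The change of 0.87 ± 0.28 missed the threshold (edgeR adjusted p = 0.0527), passed it in 9 of 13 alternatives, and was 0.21 without IRI CD45+ replicate 1. The 9 neutrophil markers in macrophage-like cells summed to 3523 and 874 CPM in the CD45+ graft and to 1200.2, 2134 and 3396 in controls, with 1 or 2 of them at 0 per library; their part in the result was not tested.

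NK-like cells, the cytotoxic lymphocytes of innate immunity, also carried both ligands. CCL3L1 was 282 and 411 CPM in the CD45+ graft, against 37.9, 39.0 and 34.8 in controls. The groups did not overlap, and the log2 change was 2.95 ± 0.18 (edgeR adjusted p = 1.52e-28), called in 13 of 13 alternatives. CCL4 in NK-like cells was 1331 and 2557 in the CD45+ graft, against 721, 589 and 558 in controls. Its change of 1.38 ± 0.38 missed the threshold (edgeR adjusted p = 0.0555) although the groups did not overlap. It was called when either graft library was left out, at 1.80 without IRI CD45+ replicate 1 and 0.84 without replicate 2. Of all genes tested in NK-like cells 48.4% were called, so 2 CC genes called of 4 tested is near that background. Of NK-like cells with a CCL3L1 UMI, 81.0 and 89.9% also had a CCL4 UMI in the CD45+ graft, against 75, 73.2 and 76.2% in controls. NK-like cells of the CD45+ graft lay mostly in clusters 0.0 and 0.1, and those of controls in clusters 2.0 and 2.2.

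T/NK-like cells, clusters with markers of both lineages, lay mostly in clusters 0.2 and 0.4 in the CD45+ graft and in clusters 2.1 and 3.0 in controls. They held 160.4 and 230.4 CPM of CCL3L1 in the CD45+ graft, against 85.2, 90.7 and 59.2 in controls. The change of 0.97 ± 0.18 was called (edgeR adjusted p = 2.70e-04) but not without doublet removal (edgeR adjusted p = 0.0522). CCL4 in these cells was 736 and 845 in the CD45+ graft, against 762, 826 and 636 in controls, and the change of -0.24 ± 0.12 was not called. The CPM averaged higher in the graft, but the test's TMM-scaled CPM averaged 755 in the CD45+ graft and 893 in controls, so the 2 scalings point opposite ways. Finer clustering turned it round to 0.98, called. Of all genes tested in T/NK-like cells 48.0% were called, and of 5 CC genes tested CCL3L1, CCL5 and CCR2.

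Small amounts of CCL3L1 appeared in nearly every class of the graft. B-like cells held 23.6 and 34.5 CPM in the CD45+ graft, against 1.64, 1.86 and 1.57 in controls, and plasma-like cells, which secrete antibody, 63.9 and 41.1 in the CD45+ graft, against 1.02, 3.62 and 0.740 in controls. Over whole libraries CCL3L1 was 612 and 617 in the CD45+ graft, against 71.5, 65.3 and 64.2 in controls. The B-like level was thus 3.85 and 5.60% of the whole-library level in the CD45+ graft, beside 4.86 and 6.38% for CCL4, 4.63 and 7.57% for CCL5 and 5.58 and 4.16% for neutrophil markers. In plasma-like cells it was 10.4 and 6.66%, beside 17.8 and 8.24% for CCL4 and 14.6 and 10.4% for neutrophil markers. Plasma-like shares were thus above the B-like ones. What part RNA from other cells has in the B- and plasma-like levels was not tested.

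The test called CCL3L1 in these and other classes, the planned background classes among them. Plasma-like cells had been set as background for CCL3L1 and CCL4, and endothelial-like cells for every CC gene. Calls in those classes are thus changes of the planned background. B-like cells, set beside other classes here, were not the planned background for these 2 genes. T-like cells held 28.8 and 29.8 CPM in the CD45+ graft, against 7.53, 9.28 and 6.93 in controls, and mature dendritic-like cells 35.1 and 31.5 in the CD45+ graft, against 0, 2.39 and 0 in controls. Graft values of both classes lay near the B-like ones of the same libraries, while T-like values of controls lay above the B-like ones of controls. CCL3L1 was called at 3.85 ± 0.43 in B-like, 4.41 ± 0.46 in plasma-like, 1.86 ± 0.23 in T-like and 4.36 ± 1.12 in mature dendritic-like cells. In structural cells it was called at 4.41 ± 0.91 in fibroblast-like and 4.90 ± 1.54 in endothelial-like cells, with 2.88% and 2.74% of the CD45- graft cells holding a UMI, beside 2.80% of its B-like cells. CCL4 was called at 1.31 ± 0.31 in B-like, 2.64 ± 0.45 in plasma-like, 1.54 ± 0.41 in mature dendritic-like and 2.41 ± 0.59 in fibroblast-like cells, the last in 8 of 10 alternatives. Of all genes tested, 45.3% were called in B-like, 35.5% in plasma-like, 56.3% in T-like and 34.4% in mature dendritic-like cells. The CC genes called were 4 of 4, 3 of 5, 3 of 6 and 2 of 4.

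**Figure D3:**
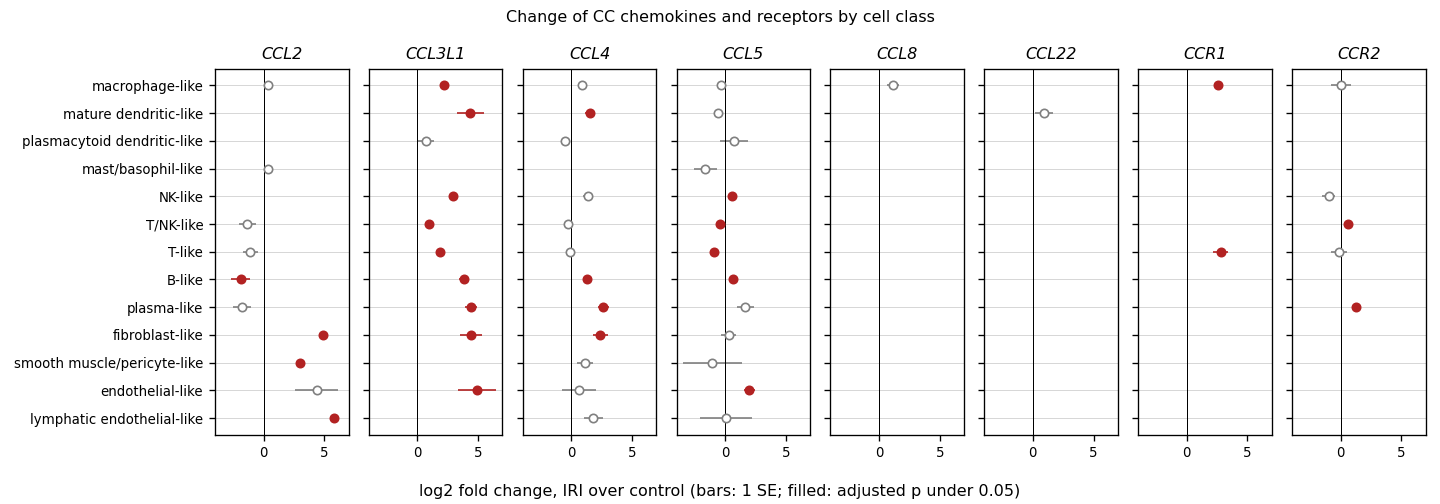
Log2 fold change of each gene in each class where it was tested, IRI over control, with bars of 1 SE; filled points passed the adjusted threshold of 0.05. Immune classes compare 2 IRI CD45+ with 3 control libraries and the 4 structural classes 1 IRI CD45- with 3 control libraries; CCR1 in fibroblast-like cells (SE 5.85) is left out. CCL2 rose in 3 structural classes, and CCR1 in macrophage-like cells and, at the level of B-like cells, in T-like cells. CCL3L1 was called higher in 9 classes, B- and plasma-like cells among them. In T-, mature dendritic-, fibroblast- and endothelial-like graft cells it lay near B-like cells in level or share of cells.

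CCL5, a cytotoxic lymphocyte ligand that attracts T cells and monocytes, was high in NK-like, T/NK-like and, in the graft, neutrophil-like cells. NK-like cells held 10065 and 9473 CPM in the CD45+ graft and 9438 in the CD45- graft, against 5359, 6054 and 5063 in controls. The log2 change between CD45+ graft and controls was 0.57 ± 0.10 (edgeR adjusted p = 4.64e-07), called in 13 of 13 alternatives. T-like cells held 317 and 298 in the CD45+ graft, against 603, 657 and 473 in controls, and fell by 0.91 ± 0.15 on the log2 scale (edgeR adjusted p = 6.58e-05). With finer clustering the T-like change was -0.15 and not called. Graft T-like cells lay in cluster 1 and most control ones in cluster 5. T/NK-like cells held 7106 and 6764 in the CD45+ graft, against 7537, 7672 and 7290.1 in controls. The TMM-scaled CPM of the test averaged 6615 in the CD45+ graft and 9038 in controls. The change of -0.45 ± 0.09 was called, yet it was 0.52 without doublet removal and 0.49 with finer clustering, both called, so its direction depends on how cells were grouped.

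Neutrophil-like cells held 7768 and 3196 CPM of CCL5 in the CD45+ graft and 1454 in the CD45- graft, and a CCL5 UMI was found in 86.9 and 70.9% of them in the CD45+ graft and 39.7% in the CD45- graft. The RNA lay mostly in 1 of the 2 neutrophil-like clusters, cluster 9, at 10898 and 5968 CPM in the CD45+ graft, beside 961 and 448 in cluster 4.0. Cluster 9 was the shallower one, at medians of 976 and 865 UMIs per cell, beside 3332 and 3258 in cluster 4.0. MMP9, a protease of neutrophil granules, stood at 605 and 959.7 CPM in cluster 9, against 1.60 and 2.67 in NK-like cells of the same libraries.

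GNLY, GZMB and CD3E were far lower in cluster 9 than in NK-like cells, and KLRB1 less so. GNLY, a protein of cytotoxic granules, was 25.0 and 20.3 CPM there, against 2123 and 2757 in NK-like and 16.0 and 8.44 in B-like cells. GZMB, a granule protease, was 29.5 and 20.3 in cluster 9, against 1283 and 1257 in NK-like cells. CD3E, part of the T cell receptor complex, was 44.3 and 43.8 in cluster 9, against 295 in NK-like cells of both libraries, and 29.6 and 4.65 in cluster 4.0. KLRB1, a lectin-like receptor of NK cells, was 180.5 and 106 in cluster 9, against 478 and 424 in NK-like cells, 51.9 and 52.7 in cluster 4.0 and 3.37 and 0.767 in B-like cells. These genes were chosen after their values were seen.

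**Figure D4:**
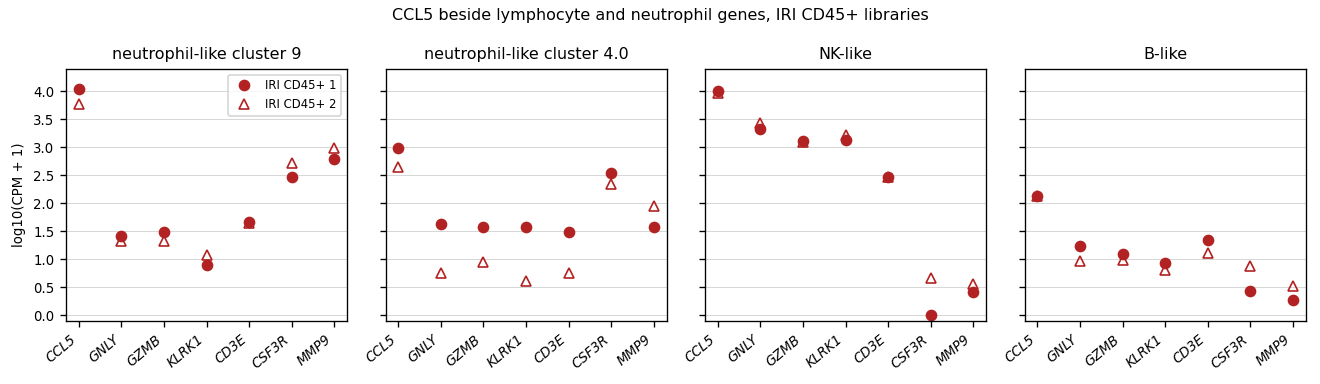
CCL5 beside the lymphocyte genes GNLY, GZMB, KLRK1 and CD3E and the neutrophil genes CSF3R and MMP9 in 4 sets of cells of the IRI CD45+ libraries (circles replicate 1, triangles replicate 2), as log10 of CPM plus 1. CCL5 in neutrophil-like cluster 9 was 10898 and 5968 CPM, while GNLY was 25.0 and 20.3; genes are to be compared across sets, not with each other.

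Elsewhere CCL5 was lower. Macrophage-like cells held 421 and 636 CPM in the CD45+ graft, against 645, 852 and 478 in controls, and the change of -0.33 ± 0.26 was not called (edgeR adjusted p = 0.367). In B-like cells it was called at 0.68 ± 0.21, in 11 of 13 alternatives, with 133 CPM in both libraries of the CD45+ graft and 91.7, 75.6 and 48.5 in controls. In endothelial-like cells it was called at 2.00 ± 0.45, in 7 of 10 alternatives, with 159 in the CD45- graft and 29.4, 45.0 and 52.1 in controls. B-like cells of the CD45- graft held 161, so the endothelial-like value is at the level of that background. In plasma-like cells the CCL5 change of 1.68 ± 0.67 was not called (edgeR adjusted p = 0.156) but was in 3 of 13 alternatives, with 319 and 100.0 in the CD45+ graft and 60.3, 46.2 and 31.8 in controls.

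CCL22 was found in mature dendritic-like cells, antigen-presenting cells on their way to lymph nodes, in both tissues, though not only there. Its level was 2189 and 1693 CPM in the CD45+ graft and 1547 in the CD45- graft, against 1763, 744 and 383 in controls. CD45+ graft and control ranges overlapped, and the change of 0.90 ± 0.72 was not called (edgeR adjusted p = 0.425). Without control replicate 1, the highest control, it was 1.62 and called. Mature dendritic-like cells held 95.1 and 59.9% of the CCL22 UMIs of the CD45+ graft libraries, against 78.2, 49.8 and 19.5% in controls. In control replicates 2 and 3 most CCL22 UMIs thus lay in other cells, which are not broken down here. In IRI CD45+ replicate 2, monocyte/macrophage-like cells held another 33.0%, at 157 CPM. NK-like cells, the background class for CCL22, held 1.60 and 5.35 in the CD45+ graft and 1.65, 0.619 and 0 in controls. Graft cells of the class lay in cluster 16.1 and control ones in cluster 16.0, and mature dendritic markers summed to 4895 and 4277 CPM in the CD45+ graft, against 8037, 9502 and 9094 in controls.

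CCR1, the myeloid receptor of CCL3-type ligands and CCL5, rose in macrophage-like cells of the graft. Its level was 625 and 482 CPM in the CD45+ graft, against 67.6, 120.2 and 87.6 in controls. The groups did not overlap, and the log2 change was 2.58 ± 0.24 (edgeR adjusted p = 1.68e-05), called in 12 of 13 alternatives. With class sums thinned to the smallest it was 3.62 and not called (edgeR adjusted p = 0.194). Of macrophage-like cells, 78.1 and 83.3% had a CCR1 UMI in the CD45+ graft, against 26.3, 38.0 and 31.9% in controls. Graft cells were deeper, at medians of 10203 and 9594 UMIs in the CD45+ graft against 4358, 5161 and 6810 in controls. At a common depth of 500 UMIs per cell, 21.9 and 10% had a CCR1 UMI in the CD45+ graft, against 3.95, 8.36 and 4.56% in controls.

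Other myeloid cells of the graft carried CCR1 as well. Neutrophil-like cells held 474 and 704 CPM in the CD45+ graft and 558 in the CD45- graft, and monocyte/macrophage-like cells 449 and 661 in the CD45+ and 585 in the CD45- graft. In controls macrophage-like cells held 83.3, 88.5 and 89.1% of all CCR1 UMIs. Lymphocytes held little: B-like cells 2.95 and 13.4 CPM in the CD45+ graft, against 0.819, 1.39 and 2.35 in controls, and T-like cells 3.18 and 12.4 in the CD45+ graft, against 0.655, 1.36 and 1.04 in controls. The T-like change of 2.79 ± 0.62 was called, but T-like values lay close to B-like ones of the same library and are read as background. Without IRI CD45+ replicate 2 it was 1.64 and not called (edgeR adjusted p = 0.105).

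**Figure D5:**
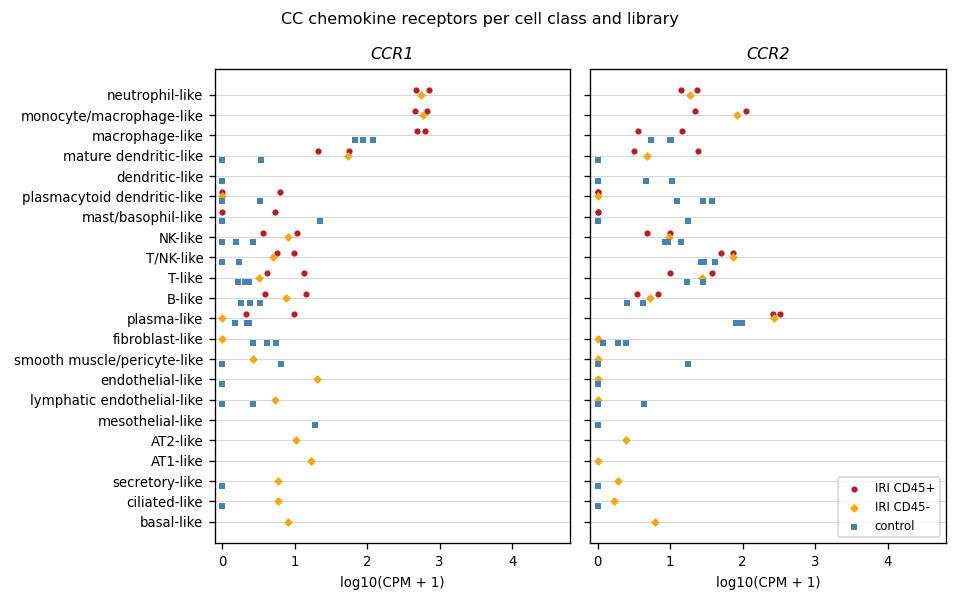
Level of CCR1 and CCR2 in each cell class, 1 point per library with at least 20 cells of the class; the x axis is the log10 of CPM plus 1. CCR1 was highest in neutrophil-, monocyte/macrophage- and macrophage-like cells, with graft libraries above controls in macrophage-like cells, and CCR2 was highest in plasma-like cells, with both IRI CD45+ libraries above all controls.

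CCR2, the receptor of CCL2, was highest in plasma-like cells and rose there in the graft. Its level was 328 and 258 CPM in the CD45+ graft and 273 in the CD45- graft, against 84.2, 98.1 and 80.5 in controls. The groups did not overlap, and the log2 change was 1.26 ± 0.16 (edgeR adjusted p = 1.64e-05), called in 13 of 13 alternatives. Of plasma-like cells, 57.0 and 57.3% had a CCR2 UMI in the CD45+ graft (medians 6257 and 7867 UMIs per cell), against 36.1, 31.5 and 32.1% in controls (medians 8134, 7236 and 7680). B-like cells served as background in place of plasma-like cells once these values were seen: 1.30 and 1.77% had a CCR2 UMI in the CD45+ graft (medians 4322 and 4983), against 1.60, 1.68 and 0.797% in controls (medians 3249, 3523 and 2964). Plasma-like cells of both tissues lay in cluster 8, and plasma markers summed to 14761 and 16467 CPM in the CD45+ graft, against 16669, 15262 and 15774 in controls. Endothelial-like cells had no CCR2 UMI: 0 of 402 cells in the CD45- graft allows up to 0.746% of cells with a UMI, and 0 of 157 in control replicate 3 up to 1.91%, limits on detection and not on expression.

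Other classes held less CCR2 than plasma-like cells. T/NK-like cells held 48.9 and 71.6 CPM in the CD45+ graft, against 40.0, 26.0 and 28.5 in controls. The change of 0.59 ± 0.23 was called (edgeR adjusted p = 0.0425), in 6 of 12 alternatives, and was 0.30 without IRI CD45+ replicate 2, 0.42 without control replicate 2 and 0.52 without control replicate 3, not called. T-like cells held 8.93 and 37.3 in the CD45+ graft, against 27.5, 27.6 and 16.3 in controls, and the change of -0.12 ± 0.64 was not called. It was called in opposite directions when 1 graft library was left out, at 0.64 without IRI CD45+ replicate 1 and -1.36 without replicate 2. In NK-like cells the change of -0.95 ± 0.53 was not called (edgeR adjusted p = 0.134), was called at -1.59 without IRI CD45+ replicate 2, and was called at 1.51 with the stricter cell filter. Monocyte/macrophage-like cells held 21.2 and 112 in the CD45+ graft and 82.2 in the CD45- graft. Macrophage-like cells held 2.61 and 13.8 in the CD45+ graft, against 8.88, 9.18 and 4.46 in controls (change 0.02 ± 0.82, not called).

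Ligand and receptor RNA were found together in myeloid cells of the graft, where CCR1 was common. In IRI CD45+ replicate 2, 84.5% of all 252 monocyte/macrophage-like cells had a CCR1 UMI. The share was 88.8% of the 197 with a CCL3L1 UMI and 97.0% of the 99 with a CCR2 UMI. Of macrophage-like cells with a CCL3L1 UMI, 80 and 95% had a CCR1 UMI in the CD45+ graft, against 37.1, 43.0 and 29.1% in controls. These shares were above those of all macrophage-like cells, given earlier, in each library but control replicate 3, where the share was below. Deeper cells give more joint detection, and depth was not matched in these shares.

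A call in 1 class and none in another does not show that the classes differ, so changes were also compared between classes of the same libraries with limma. CCL5 changed by -0.94 in T-like and by 0.57 in NK-like cells in that fit, and the difference of -1.52 ± 0.30 missed the threshold (limma adjusted p = 0.0904). For the same classes CCL3L1 differed by -1.11 ± 0.33 (limma adjusted p = 0.143) and CCL4 by -1.46 ± 0.42 (limma adjusted p = 0.136). By limma 0 CC genes were called in 3 pairs of classes, and these 3 genes alone had an unadjusted p under 0.05. Of all genes, 8.34% were called between macrophage- and T-like, 5.56% between macrophage- and NK-like and 0.0223% between T- and NK-like cells. In plasmacytoid dendritic-like and mast/basophil-like cells 0 CC genes were called by edgeR or DESeq2, and 0 had an unadjusted p under 0.05 by edgeR, against 24.8% and 26.7% of all genes called.

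Receptors for homing to lymph node and gut were called higher in T-, NK- and T/NK-like cells. Graft and control cells of each of these classes lay mostly in different clusters. What part that has in the changes was not tested. Of 12 further CC receptors, decoys and scavengers, 9 were listed in all libraries; in T-like cells 5 were tested, 2 rose and 2 fell. Across all genes 56.3% were called in T-like, 48.4% in NK-like, 48.0% in T/NK-like and 45.3% in B-like cells. CCR7, which guides cells to lymph nodes, rose by 1.80 ± 0.12 in T-like cells, averaging 1108 in the CD45+ graft and 319 in controls as TMM-scaled CPM. CCR9, a gut-homing receptor, rose there by 2.39 ± 0.63. CCR4, the receptor of CCL22, fell by 0.81 ± 0.30 in T-like cells. In NK-like cells 2 of 4 rose, CCR7 and CCR9, and 1 fell. In T/NK-like cells 2 of 5 rose, again CCR7 and CCR9, and 1 fell. CCR9 varied widely between the 2 graft libraries, averaging 18.8 (SD 15.4) in NK-like and 55.4 (SD 52.9) in T/NK-like cells. Graft averages of CCR7 were 197 in NK-like and 98.9 in T/NK-like cells, beside 1108 in T-like and 1683 in B-like cells. What part RNA from other cells has in the lower ones was not tested. In B-like cells CCR7 rose by 1.14 ± 0.12, of 2 tested.

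Single members of that list rose in other classes. In plasmacytoid dendritic-like cells, the interferon producers, CCR7 rose by 2.60 ± 0.32, averaging 1401 in the CD45+ graft and 235 in controls, of 2 tested. In plasma-like cells CCR9 rose by 4.99 ± 0.47, averaging 166 in the CD45+ graft and 5.44 in controls, of 5 tested. ACKR2, which removes inflammatory CC chemokines, rose by 2.37 ± 0.26 in lymphatic endothelial-like cells, to 756 in the CD45- graft from an average of 143 in controls. In endothelial-like cells it rose by 4.91 ± 0.73, to 130 from 4.30. What part lymphatic endothelial RNA or cells have in the endothelial-like value was not tested.

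Of 14 further CC ligands, 7 were listed in all 6 libraries and 10 in the libraries of the structural comparisons. CCL21, the CCR7 ligand of lymphatic vessels, averaged 12989 TMM-scaled CPM in lymphatic endothelial-like cells of the CD45- graft and 10671 in controls, and its change of 0.28 ± 0.18 was not called. CCL21 rose by 5.91 ± 0.55 in endothelial-like cells, to 620 in the CD45- graft from an average of 7.70 in controls. In smooth muscle/pericyte-like cells it rose by 4.02 ± 0.63, to 135 from 5.38. Both graft values were far below the lymphatic endothelial-like one. What part RNA or cells of that class have in them was not tested. CCL19, another CCR7 ligand, fell by 8.16 ± 1.54 in smooth muscle/pericyte-like cells, averaging 8.46 in the CD45- graft and 2539.7 in controls. CCL14, a ligand of CCR1, fell by 4.50 ± 0.65 in endothelial-like cells, averaging 8.67 in the CD45- graft and 202 in controls. CCL26, an eosinophil attractant, rose by 3.23 ± 0.66 in fibroblast-like cells. It was called lower in lymphatic endothelial-like cells, with 0 in the CD45- graft and an average of 95.7 in controls. CCL21 was called lower in macrophage-like cells, with 0 in the CD45+ graft and an average of 25.9 in controls. Lymphatic endothelial-like cells numbered 0 in both CD45+ graft libraries and 38, 121 and 140 in controls. What part their RNA has in the macrophage-like level was not tested. CCL25, the ligand of CCR9, was low in all classes named here. It fell by 2.44 ± 0.72 in NK-like cells (average 1.46 in the CD45+ graft, 8.85 in controls) and by 2.38 ± 0.59 in T/NK-like cells (2.18 and 11.0). The fall was 2.64 ± 0.43 in T-like (1.88 and 11.5) and 1.97 ± 0.66 in B-like cells (1.83 and 7.59). In fibroblast-like cells CCL25 was called lower, with 0 in the CD45- graft and an average of 15.7 in controls. Macrophage-like (0 and 6.27) and plasma-like cells (3.73 and 8.76) pointed the same way, not called. Whether the fall is particular to any class was not tested.

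Of 30 genes that carry the receptor signal, 29 were listed in all libraries. In T-like cells 9 of 27 tested rose and 12 fell, in T/NK-like cells 2 of 26 rose and 11 fell, and in macrophage-like cells 4 of 28 rose and 6 fell. The share of all genes called was 56.3% in T-like, 48.0% in T/NK-like and 26.4% in macrophage-like cells. The list's median change was -0.39 in T-like, -0.38 in T/NK-like and -0.03 in macrophage-like cells, beside -0.03, -0.02 and -0.30 for all genes tested. GNAI2, an inhibitory G protein subunit of leukocytes, rose by 0.95 ± 0.13 in NK-like, 0.82 ± 0.10 in T/NK-like and 0.97 ± 0.13 in plasma-like cells, and fell by 1.08 ± 0.29 in fibroblast-like cells. It also rose by 1.01 ± 0.21 in mature dendritic-like and 0.94 ± 0.17 in plasmacytoid dendritic-like cells. Further rises were 1.38 ± 0.36 in mast/basophil-like and 0.55 ± 0.21 in lymphatic endothelial-like cells. DOCK2, a Rac activator that lymphocytes need to migrate, fell by 1.28 ± 0.19 in NK-like, 1.47 ± 0.14 in T/NK-like, 1.53 ± 0.16 in T-like and 1.25 ± 0.18 in B-like cells. DOCK2 also fell by 2.10 ± 0.46 in plasmacytoid dendritic-like and 1.30 ± 0.29 in plasma-like cells.

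Profiles across 67 class-by-library sums of 21 classes were compared with Pearson's r on log2(CPM + 1), as a description of sums that share libraries and depth. CCL3L1 was the gene most like CCL4 (r = 0.81), followed by TNF (0.76) and CCL5 (0.76). Most like CCL5 were ICAM3 (0.84), GZMA (0.84) and KLRK1 (0.83), and most like CCL8 were MSR1 (0.83), C1QB (0.79) and C1QA (0.79). CCL3L1 was most like HK3 (0.86) and TGM3 (0.83), CCR1 like ARG1 (0.89) and IGSF6 (0.86), and EDEM1 was among the genes most like CCR2 (0.73). CCL22 was most like GPR137B (0.79), RAB10 (0.71) and IDO1 (0.69), and CCL2 like NIBAN2 (0.86); neighbours without a symbol are left out. Between CCL2 and its receptor CCR2 the value was -0.45.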

How the data were processed

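Each of the 6 libraries (DNBelab C Series HT droplets, DNBSEQ-T7 sequencing, per the labels' protocols) was deposited by the authors as a matrix of raw UMI counts per gene and cell, written by PISA per the file headers. The submitters' processing notes name Seurat 5.5.3, R 4.2.2 and the build Sscrofa11.1; the aligner is not given in the sources used here. The depth ran from 19098567 to 40647380 UMIs per library. The libraries list different genes, and graft libraries list no mitochondrial genes, so levels use all genes listed in a library, and tests use genes listed in all libraries compared. The limit on mitochondrial UMIs therefore acted on controls only.

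Cells needed 500 UMIs, 200 genes and at most 20% mitochondrial UMIs. Scrublet's own threshold called 41 cells or fewer per library and had not worked, so the top 6% of scores per library were removed; 38219 of 43322 cells were kept. Cells (scanpy 1.11.5, 2000 variable genes, 30 components, no CC ligand or receptor) were clustered by the Leiden method at resolution 1, and mixed clusters were split, giving 85 clusters. Naming used marker lists, and the naming rules were revised after the clusters were seen; 5.06% to 20.9% of cells per library stayed unnamed. Cells carry serial names, 1898 of them found in all libraries, so shared barcodes could not be counted. UMIs were summed per class and library and tested with edgeR 4.0.16 (TMM, filterByExpr, robust quasi-likelihood) and, between classes, with limma 3.58.1; DESeq2 1.42.0 was an alternative. Intervals are 95% Poisson or exact binomial, the floor is 3 counts, and thinned shares use 500 UMIs per cell.

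The CC genes and the lists beside them were chosen with earlier results of these data known. The 8 CC genes listed are reported for the classes the results turn on, and the plot of changes holds their tests, except CCR1 in fibroblast-like cells; from each other list, counts and up to 4 genes with the smallest p per comparison are named, and for each CC gene the 3 genes with the highest correlation among those with a mean of at least 20 CPM. 1 gene of these lists is not reported here. Alternatives were another scaling, DESeq2, no low-count filter, thinned sums, each replicate left out, the replicate number as a block, a stricter cell filter, no doublet removal and finer clustering.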

Additional observations from a re-analysis of the deposited data

How the results depend on the processing

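CCL2 in fibroblast-, lymphatic endothelial- and smooth muscle/pericyte-like cells, CCL3L1 in macrophage-, NK-, T-, B- and plasma-like cells, CCL4 in B- and plasma-like cells, CCL5 in NK-like cells and CCR2 in plasma-like cells, and CCL3L1 in fibroblast-like cells wherever it was tested, kept their call and direction in every alternative run. In structural classes no alternative left out the graft library, as there is only 1, so its spread was not tested. Counts of CC genes called moved over 1.5 times in these cases. DESeq2 called 4 in macrophage-like (2 by edgeR) and 0 in endothelial-like cells (2 by edgeR). Class sums thinned to the smallest gave 1 in macrophage-like (from 2), 1 in mature dendritic-like (from 2), 1 in fibroblast-like (from 3) and 0 in endothelial-like cells (from 2). No low-count filter gave 4 in NK-like and 4 in mature dendritic-like cells (2 each with it), 1 in plasmacytoid dendritic-like (0) and 2 in lymphatic endothelial-like cells (1). The stricter cell filter gave 2 in lymphatic endothelial-like and 2 in smooth muscle/pericyte-like cells (1 each), and 1 for T against NK (0); T/NK-like cells were then too few to be tested. No doublet removal gave 1 in endothelial-like (from 2), 2 in smooth muscle/pericyte-like (from 1) and 1 in plasmacytoid dendritic-like cells (from 0), and finer clustering 3 in smooth muscle/pericyte-like cells (from 1). With each replicate left out, counts ran from 2 to 4 in B-, NK-, T- and T/NK-like, 2 to 5 in macrophage-like, 1 to 3 in mature dendritic-like, 0 to 2 in plasmacytoid dendritic-like, 0 to 1 in mast/basophil-like, 2 to 4 in endothelial-like, 1 to 3 in lymphatic endothelial-like and 1 to 2 in smooth muscle/pericyte-like cells, and 0 to 2 for macrophage against NK.

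Replicate numbers pair no libraries in the labels, and deviations of same-numbered libraries correlated at -0.0711 to 0.0553. With the replicate number as a block, edgeR called 2 CC genes in B-like (from 4) and 4 in macrophage-like cells (from 2), and the block turned CCL4 in T-like cells to 0.14 and CCR2 in macrophage-like cells to -0.28.

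These log2 changes turned round. Finer clustering gave 0.42 for CCL4 and 0.42 for CCR2 in T-like, 0.98 for CCL4 and 0.49 for CCL5 in T/NK-like, 0.092 for CCR1 in fibroblast-like and -0.078 for CCR2 in macrophage-like cells. No doublet removal gave 0.28 for CCL4 and 0.52 for CCL5 in T/NK-like, and for CCL5 -1.01 in fibroblast-like, -0.61 in lymphatic endothelial-like and 0.57 in smooth muscle/pericyte-like cells. The stricter filter gave 1.51 for CCR2 in NK-like, -0.28 for CCL4 in endothelial-like and 0.86 for CCR1 in fibroblast-like cells. DESeq2 gave -0.080 and thinned sums -0.17 for CCL5 in lymphatic endothelial-like cells, thinned sums -0.46 for CCL2 in mast/basophil-like cells, and no low-count filter -0.14 for CCR2 in macrophage-like cells. Between classes, the stricter filter gave -2.12 for CCR2 in T against NK, and 0.52 for CCL4 and -1.22 for CCR2 in macrophage against NK. Finer clustering gave -0.044 for CCR2 in macrophage against NK, and -0.16 for CCL5 and -0.58 for CCR2 in macrophage against T. The cause was not tested in any of these.

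With each replicate left out, these log2 changes also crossed 0: in T-like cells CCL4 from -0.47 to 0.29 and CCR2 from -1.36 to 0.64, in macrophage-like cells CCL2 from -0.072 to 0.61 and CCR2 from -1.54 to 0.87, CCL3L1 in plasmacytoid dendritic-like cells from -0.43 to 1.31 (lowest without IRI CD45+ replicate 2), and CCL5 from -0.54 to 1.67 in lymphatic endothelial-like and from -1.72 to 0.99 in smooth muscle/pericyte-like cells. Differences between classes did so for CCR2 in T against NK (-0.015 to 0.89), for CCL3L1 (-1.74 to 0.064) and CCL4 (-1.56 to 0.47) in macrophage against NK, and for CCL3L1 (-0.43 to 0.81), CCL4 (-0.086 to 1.74) and CCR1 (-0.64 to 1.42) in macrophage against T. Levels rest on 30 to 32 macrophage-like and 35 to 47 mature dendritic-like graft cells per CD45+ library, which limits the precision of both classes.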
